A study of Mus musculus with 12 samples.

Results

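The comparison described here asks how the hippocampal response to lipopolysaccharide (LPS) changed between 4 h and 24 h after the injection in mice with recurrent seizures. LPS, a glycolipid of bacterial membranes, starts a sterile inflammation of the whole body. All 12 arrays of the series enter, 3 in each of 4 groups, and the quantity is the LPS minus saline difference at 24 h minus the same difference at 4 h. Male C57BL/6N mice, 12 weeks old in the labels, had all been injected in the left dorsal hippocampus with kainate (50 nl, 20 mM), which excites glutamate receptors and leaves a seizure disorder. After 3 weeks, when seizures recurred, they were given LPS (from Salmonella enterica, 100 µg/kg) or saline into the abdomen, and hippocampi were taken 4 h or 24 h later. Each time has thus a saline group and an LPS group, and every group carries the kainate lesion. Neither the hour of day nor the side that was dissected is given in the labels. Of 41174 transcript probes on the one-colour Agilent arrays, a probe was kept if the scanner software flagged it well above background on each array of 1 group or more, and 1 probe stood for each of 18178 genes. All 12 arrays carried signal well above background in 81.5% of these genes.

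LPS is sensed by Toll-like receptor 4, and much of the signal that reaches the brain runs through endothelial and perivascular cells. The first wave of transcription rests on NF-kappaB, which drives cytokines, chemokines, adhesion molecules and its own inhibitors. Interferons made in that wave act through STAT and IRF factors on a later set of antiviral and antigen presentation genes, and adrenal glucocorticoids, released in the same hours, induce a set of their own. Endothelial cells of brain vessels hold the blood-brain barrier, and microglia are the resident macrophages of the tissue.

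Between 4 h and 24 h the response changed in kind as well as in size. Akap12, a scaffold protein (LPS minus saline 4.17 on the log2 scale at 4 h, 0.06 at 24 h, SE of the difference 0.057, n = 3 per group) and Ptgs2, the inducible cyclooxygenase (2.37, -0.19), stood high at 4 h and near saline at 24 h. The neutrophil transcript S100a9 (3.70, 1.12) and the cytokine Il1b (3.09, 1.65) were higher at both times and more so at 4 h, while the lists they belong to divided. Endothelial genes such as Cldn5 (-3.09, 0.56) were below saline at 4 h and above it at 24 h. Interferon, antigen presentation and complement genes had larger responses at 24 h, for example Ifi27l2a (-0.91, 2.28), but there the saline arrays, not the LPS arrays, changed most between the times. These splits hold relative to each array's 75th percentile. Without scaling between arrays, median differences of the endothelial, interferon, antigen presentation and complement lists were smaller, as given with those lists. Leaving out the scaling shifts the difference of every gene by the same amount, so all list medians moved down together. The median went from 0.17 to -0.59 over all genes and from -0.33 to -1.09 over NF-kappaB genes. It went from -1.21 to -1.97 over neutrophil and blood monocyte markers.

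The level of a gene is given as the log2 of its processed signal relative to the 75th percentile of its own array, so that 0 is the signal at that percentile, and levels of different genes are not compared with each other. A difference was called at a Benjamini-Hochberg adjusted p under 0.05 in limma over all genes, from 3 samples per group. The study's design text counts 3 animals for each treatment and time but does not say that each array held the RNA of 1 animal. Over 162 probes that are spotted repeatedly and well above background, the median SD (log2) of the same spot over the 3 arrays of a group was 0.0449 in saline and 0.0453 in LPS at 4 h, and 0.0583 and 0.0826 at 24 h. The median SD between spots of a probe on a single array was 0.0597, 0.0558, 0.0747 and 0.0619 in the same order. Arrays of a group thus differed by about as much as repeated spots on an array, and in 3 of 4 groups by less. The SEs and p-values below measure the spread between these arrays, which may be technical, and the high shares of genes called are to be read with that. The saline groups did not stand still between the times. From saline at 4 h to saline at 24 h, 80.7% of genes were called and 27.9% were called and changed at least 2-fold, against 74.6% and 13% from LPS at 4 h to LPS at 24 h. The saline 4 h arrays also had the lowest 75th percentile of processed signal, at 385 ± 12.4 (SD, n = 3) against 702 ± 35.6 in LPS at 4 h, 798 ± 61.2 in saline at 24 h and 864 ± 124 in LPS at 24 h. The arrays of each time were scanned on a day of their own, so time and scan day cannot be told apart. Saline and LPS arrays of a time shared their scan day and their slides. The difference of the responses is the change from 4 h to 24 h in the LPS arrays minus that in the saline arrays. It can therefore come from either, and both changes are given beside a part of the results. Where they are not given, a difference is not to be read as a change of the LPS arrays. A gene is said below to be moved by the LPS arrays where their change was the larger of both in size, and by the saline arrays otherwise.

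The response differed between the times in most genes. The difference was called in 68.8% of genes tested. It was above 0 in 7594 genes (41.8%) and below 0 in 4918 (27.1%), and at least 2-fold in 1596 (8.78%) and 1463 (8.05%). Its median over all genes was 0.17 (a log2 difference). Without any scaling between arrays that median was -0.59, and the calls split into 905 above 0 and 10127 below 0, so the sign of a small difference depends on the scaling. With the other scalings the median lay between 0.03 and 0.25. The saline arrays moved more than the LPS arrays in 65.7% of all genes, in 72.9% of those called and in 77.2% of those called and at least 2-fold different. By the contrast of LPS at 24 h with LPS at 4 h in the fit of all 12 arrays, 5963 genes (32.8%) were higher at 24 h than at 4 h and 7601 (41.8%) lower. Against saline of the same time, LPS was called higher in 29% and lower in 45% of genes at 4 h, and in 21.6% and 25.9% at 24 h. The arrays of LPS and saline did not overlap in 77.4% of genes at 4 h and 56.1% at 24 h, against which single genes without overlap are to be read.

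Genes called and changed at least 2-fold at 4 h or at 24 h were sorted by their course, which gave 2520 responders. Of these, 2163 responded at 4 h (7.34% of genes higher, 4.55% lower), 562 at 24 h (2.85% higher, 0.242% lower) and 205 at both. An early only response, called at 4 h, not called at 24 h and with a called difference, was found for 584 genes that were higher (3.21% of genes tested) and 383 that were lower (2.11%). A late only response was found for 131 higher (0.721%) and 12 lower genes (0.066%). Called at both times in one direction but larger at 4 h were 262 higher (1.44%) and 106 lower genes (0.583%). Larger at 24 h were 98 higher (0.539%) and 12 lower genes (0.066%), and for 80 higher (0.44%) and 5 lower genes (0.0275%) the sizes were not distinguished. Opposite directions were called for 349 genes that were higher at 4 h and lower at 24 h (1.92%) and 383 that were lower at 4 h and higher at 24 h (2.11%). In 115 genes the course was not resolved (0.391% higher, 0.242% lower).

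**Figure D1:**
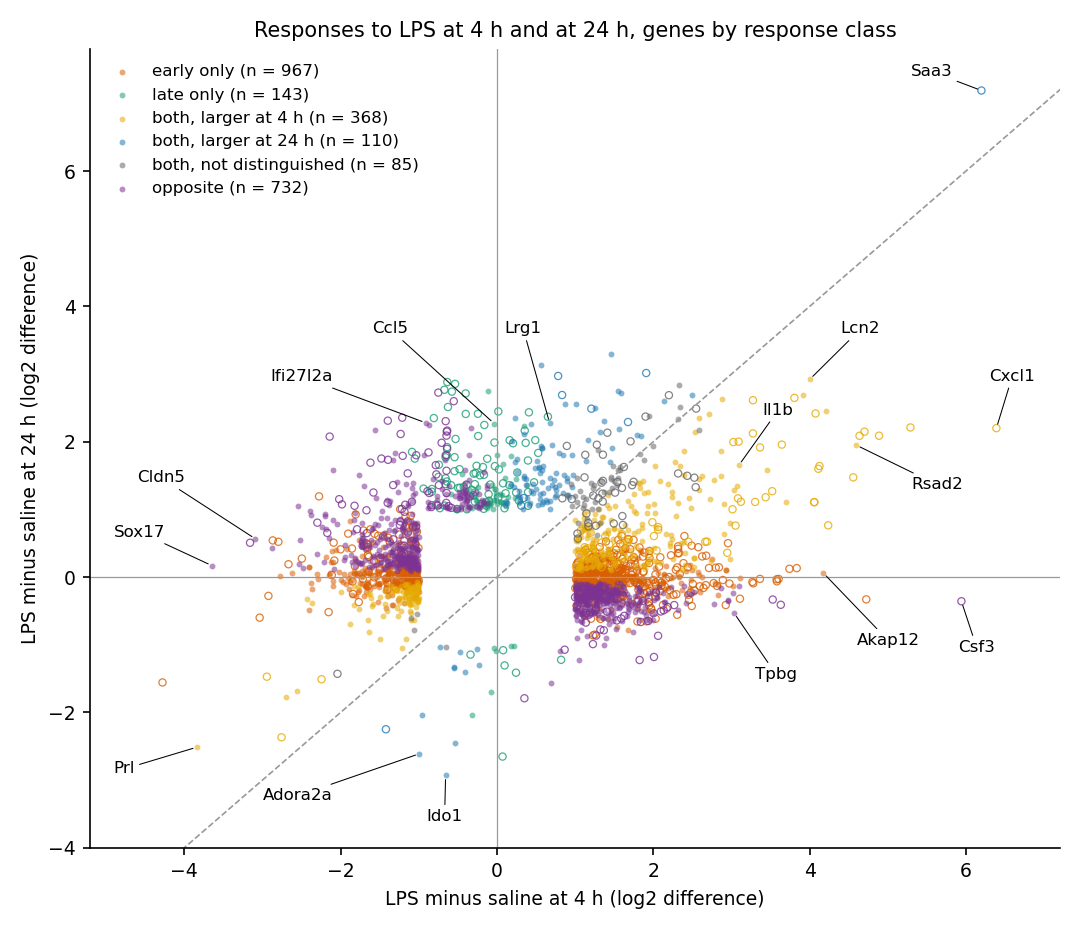
Each point is a gene that responded at least 2-fold at either time, at its fitted log2 difference between LPS and saline at 4 h (x axis) and at 24 h (y axis), coloured by course, and open where no array of 1 of its groups passed the background flag. Points right of 0 and near the horizontal line are early only, and Saa3 and Cxcl1 lie farthest out, both as open points whose fitted position rests on saline signals below background.

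The second leg of an opposite course was mostly small: 43 of the 732 genes were changed at least 2-fold at both times. Of the 131 late only higher genes, 66 were well above background in neither group at 4 h, and 42 were above it on all 12 arrays. The courses were moved by the LPS arrays in unequal shares. This held for 164 of 262 genes that were higher at both times and more so at 4 h, for 61 of 131 late only higher genes, for 104 of 584 early only higher genes and for 75 of 383 genes lower at 4 h and higher at 24 h. Among genes well above background on all 12 arrays it held for 126 of 199, 6 of 42, 43 of 266 and 45 of 314 in the same order. A late only gene that passed the filter through the LPS 24 h arrays alone had to move there, so the share of 61 of 131 supports nothing on its own. In all, 622 of the 2520 responders were moved by the LPS arrays. When the saline 24 h arrays served as controls of both times, early only genes numbered 1139, late only 85, genes larger at 4 h 1046, genes larger at 24 h 113 and opposite genes 175. With the saline 4 h arrays as controls of both they numbered 185, 663, 584, 3204 and 260. These settings, and the split by which arrays moved more, were chosen after the data were seen. Further list members, and genes named as moved by the LPS arrays, were chosen after their values were seen.

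**Figure D2:**
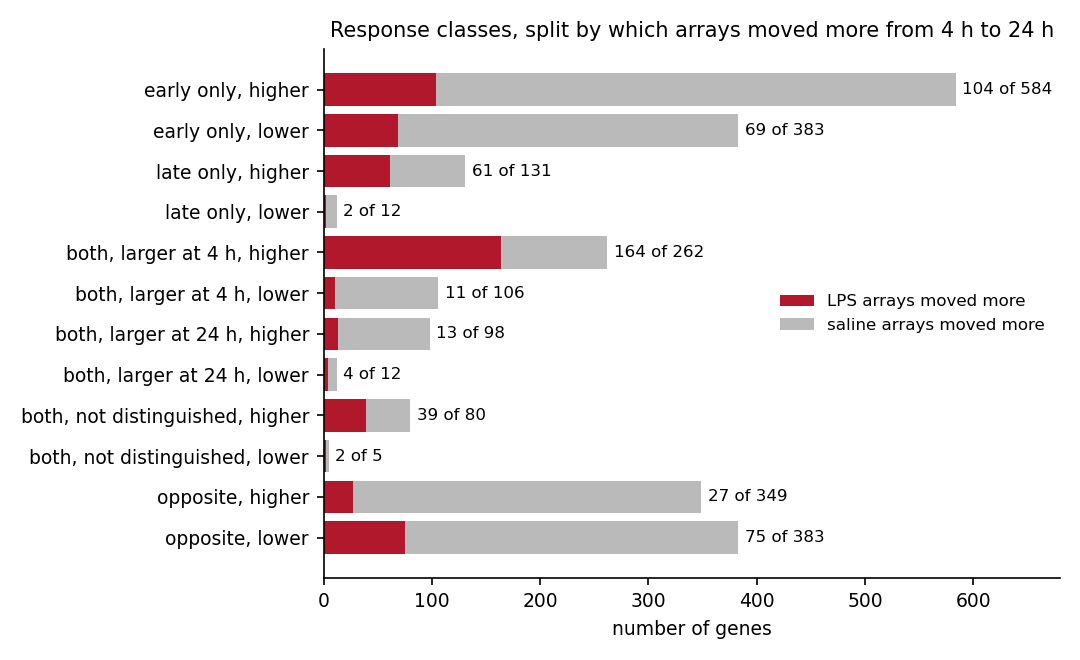
Bars count the genes of each course and direction (x axis, number of genes), red for genes whose LPS arrays moved more from 4 h to 24 h and grey for genes whose saline arrays moved more. Red is the larger share among genes higher at both times and larger at 4 h (164 of 262), and grey among early only and opposite genes.

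Early only genes moved by the LPS arrays included a scaffold protein, an enzyme of prostaglandin synthesis, a matrix protease and a cytokine. Akap12, an anchoring protein for protein kinases A and C, had levels of 1.11, 1.01 and 0.99 in saline at 4 h, 5.16, 5.25 and 5.22 in LPS at 4 h, 1.62, 1.66 and 1.59 in saline at 24 h and 1.66, 1.72 and 1.68 in LPS at 24 h. The LPS 4 h arrays stood above all of the others, and the other 3 groups lay near each other. Its response was 18.1-fold at 4 h (4.17 as a log2 difference) and 0.06 at 24 h, where it was not called, and the difference was -4.11 (SE 0.057, adjusted p = 5.25e-10). Ptgs2, the inducible cyclooxygenase of prostaglandin and fever signalling, had levels of -3.28, -3.49 and -3.17 in saline at 4 h, -0.99, -0.97 and -0.87 in LPS at 4 h, -2.39, -2.59 and -2.54 in saline at 24 h and -2.74, -2.62 and -2.72 in LPS at 24 h. Its response was 2.37 at 4 h and -0.19 at 24 h, a difference of -2.56 (SE 0.12, adjusted p = 4.94e-08), and at 24 h LPS and saline were not called different. Adamts9, a secreted metalloprotease that cleaves proteoglycans, gave 2.58 at 4 h and 0.03 at 24 h and a difference of -2.55 (SE 0.064, adjusted p = 2.01e-09). Irf2bp2, a transcriptional corepressor, had the same form at 2.40 at 4 h and -0.13 at 24 h, but the small value at 24 h was called, which puts it among the opposite genes. It moved by -1.45 in LPS arrays and 1.08 in saline arrays. Depp1, a gene of starvation and FOXO signalling, likewise gave 2.96 at 4 h and -0.35 at 24 h, a difference of -3.31 (SE 0.095, adjusted p = 3.2e-09). Sox7, an endothelial transcription factor, was higher at 4 h by 1.09 and not called at 24 h.

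Several cytokine transcripts were measurable only in LPS arrays. Il6, a fever and acute phase cytokine, was well above background on the 3 LPS 4 h arrays alone, and its RefSeq promoter and that of the neutrophil chemokine Cxcl1 are shown because both hold an NF-kappaB match close to the start. Each runs from 250 bases before to 50 after the start in GRCm38.p6, 5′ to 3′, with the match in capitals. Cxcl1 lies at chr5:90890995-90891294, plus strand, and Il6 at chr5:30012864-30013163, plus strand.
Cxcl1: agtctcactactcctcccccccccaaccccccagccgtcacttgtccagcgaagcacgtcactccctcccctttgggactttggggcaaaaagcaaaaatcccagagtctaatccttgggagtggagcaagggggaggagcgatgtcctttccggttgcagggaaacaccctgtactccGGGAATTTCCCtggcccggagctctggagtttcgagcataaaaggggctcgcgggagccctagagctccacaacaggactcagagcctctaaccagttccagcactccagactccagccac
Il6: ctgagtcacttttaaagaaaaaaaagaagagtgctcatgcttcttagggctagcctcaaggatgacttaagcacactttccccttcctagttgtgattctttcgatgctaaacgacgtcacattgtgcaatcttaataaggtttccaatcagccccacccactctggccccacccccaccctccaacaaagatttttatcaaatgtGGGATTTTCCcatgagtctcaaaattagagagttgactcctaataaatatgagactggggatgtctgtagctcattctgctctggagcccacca

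For Il6 the levels were -6.19, -6.64 and -6.63 in saline at 4 h, -2.66, -2.65 and -2.65 in LPS at 4 h, -7.19, -7.41 and -7.40 in saline at 24 h and -7.09, -7.25 and -7.25 in LPS at 24 h. At 4 h it was at least 4.46-fold higher in LPS than in saline, and at 24 h neither group was above background, so no size of the difference is given. Csf3, the granulocyte growth factor, was likewise above background on the LPS 4 h arrays only, with a rise of at least 15.6-fold at 4 h. It was called lower at 24 h from signals below background, so no direction at 24 h can be read from it. Cxcl1 had levels of -6.54, -7.04 and -7.05 in saline at 4 h, -0.47, -0.45 and -0.53 in LPS at 4 h, -6.86, -7.10 and -7.18 in saline at 24 h and -4.90, -5.05 and -4.60 in LPS at 24 h. Its LPS arrays were above every saline array at both times, at least 20.0-fold at 4 h and at least 2.59-fold at 24 h. No saline array was above background, so the size of the difference is not read from the fit, but the LPS arrays, all above background, changed by -4.36 from 4 h to 24 h (SE 0.15, adjusted p = 6.94e-09 in limma). Il1b, the inflammasome cytokine, was 8.54-fold higher at 4 h and 3.14-fold higher at 24 h, with a difference of -1.44 (SE 0.064, adjusted p = 3.73e-08) and changes over time of -1.93 in LPS arrays and -0.48 in saline arrays. Tnf was called higher at both times, at least 1.03-fold at 4 h, where no saline array was above background, and 2.63-fold at 24 h. Its fitted difference of 0.06 was not called (adjusted p = 0.685) and turned to -0.70 without scaling, where it was called (adjusted p = 0.019).

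Chemokines took different courses. Over 24 measured cytokines and chemokines, 9 were called higher for the difference (41.8% of all genes) and 9 lower (27.1%), with a median of -0.02 against 0.17 over all genes. The split depended on the scaling, with 10 higher and 7 lower and a median of 0.06 with median scaling, 7 and 12 and -0.28 in the deposited matrix, and 4 and 15 and -0.78 without scaling. Over all 18178 genes without scaling, 905 were higher and 10127 lower, with a median of -0.59. The monocyte chemoattractant Ccl2 was 6.57-fold higher at 4 h and 5.33-fold at 24 h, and Cxcl10, a chemokine for T cells, 5.98-fold and 5.11-fold. Their differences, -0.30 (SE 0.085, adjusted p = 0.00952) and -0.23 (SE 0.077, adjusted p = 0.0246), were both lost with median scaling (adjusted p = 0.0617 and 0.203). That of Cxcl10 was also lost with quantile scaling (adjusted p = 0.061) and without any of 5 single arrays (adjusted p from 0.0513 to 0.0592). Both chemokines also fell over time in saline, with changes of -2.27 and -2.37. Cxcl13, the B cell chemokine, went from 0.56 to 3.14 and Ccl12 from 1.01 to 2.55. The T cell chemokine Ccl5 was late only, at -0.04 and then 2.27, with levels of 4.22, 4.21 and 4.21 in saline at 4 h, 4.14, 4.21 and 4.18 in LPS at 4 h, 0.36, 0.33 and 0.25 in saline at 24 h and 2.61, 2.59 and 2.54 in LPS at 24 h. Its LPS arrays fell between the times, and its late response came with a larger fall of the saline arrays, -1.60 in LPS arrays and -3.90 in saline arrays. Ccl8, a monocyte chemoattractant, differed in this: its LPS arrays rose by 1.52 while saline changed by 0.14, and its response grew from 0.56 to 1.94, a difference of 1.38 (SE 0.13, adjusted p = 5.84e-06).

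Genes of the NF-kappaB pathway were more often larger at 4 h. Among the 16 measured subunits, targets and inhibitors, 3 were called higher for the difference (41.8% of all genes) and 9 lower (27.1%). Their median was -0.33 against 0.17 over all genes. Both sets of arrays fell over time, by medians of -1.13 in LPS arrays and -0.96 in saline arrays. In 7 of the 12 genes with a called difference, the change in LPS arrays was called with the same sign. Irak3, an inhibitory receptor kinase, was at least 5.07-fold higher at 4 h and 1.44-fold at 24 h, and Nfkbiz, an atypical inhibitor, gave 1.78 at 4 h and 0.46 at 24 h. The p100 precursor Nfkb2 gave 1.76 at 4 h and 0.97 at 24 h, a difference of -0.78 (SE 0.051, adjusted p = 5.18e-07). Nfkbia, the inhibitor that ends each NF-kappaB pulse, differed by -0.34 (SE 0.10, adjusted p = 0.0117), which was not called with normexp background correction. Socs3, the feedback inhibitor of IL-6 signalling, had levels of 2.09, 2.11 and 2.07 in saline at 4 h, 4.71, 4.73 and 4.72 in LPS at 4 h, 0.34, 0.27 and 0.25 in saline at 24 h and 1.76, 1.81 and 1.80 in LPS at 24 h. LPS lay above saline at both times without overlap, by 6.18-fold and 2.83-fold, and the difference was -1.13 (SE 0.042, adjusted p = 1.28e-08). The LPS receptor component Cd14 gave 2.21 at 4 h and 0.46 at 24 h, and the C-type lectin receptor Clec4e at least 8.75-fold and at least 1.12-fold.

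Genes known to be induced by glucocorticoids were more often larger at 4 h, and some of them were close to saline at 24 h. Of 18 measured, 15 were called higher at 4 h (29% of genes tested) and 13 at 24 h (21.6%). For the difference 12 were lower (27.1% of genes tested) and 3 higher (41.8%), with a median of -0.34. In this list the median change over time was -1.54 in LPS arrays and -0.91 in saline arrays. Fkbp5, a chaperone of the glucocorticoid receptor, had levels of -1.43, -1.48 and -1.49 in saline at 4 h, 0.41, 0.41 and 0.47 in LPS at 4 h, -1.37, -1.23 and -1.37 in saline at 24 h and -1.23, -1.18 and -1.21 in LPS at 24 h. The LPS 4 h arrays were 3.72-fold above saline and the other groups lay near each other, with LPS higher by 0.11 at 24 h, giving a difference of -1.78 (SE 0.057, adjusted p = 5.69e-09). Tsc22d3, which encodes the anti-inflammatory protein GILZ, gave 1.41 at 4 h and -0.17 at 24 h, and the kinase Map3k6 2.21 at 4 h and 0.51 at 24 h. Errfi1, an inhibitor of the EGF receptor, was early only at 1.30 and 0.07. Mt2 and Mt1, the metallothioneins, had differences above 0, of 0.86 and 0.69, beside changes of -1.65 and -1.23 in saline. The clock gene Per1 differed by -0.21 (SE 0.072, adjusted p = 0.0267), which was not called with median scaling, with normexp, in the deposited matrix, without the filter or without any of 3 single arrays.

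Acute phase genes divided between the times. For the difference 5 of 16 measured members were called higher (41.8% of all genes) and 8 lower (27.1%), and the median was -0.21. Saa3, a serum amyloid A protein, showed the largest response at 24 h among named genes, with levels of -4.88, -4.94 and -4.72 in saline at 4 h, 1.30, 1.37 and 1.38 in LPS at 4 h, -6.68, -6.53 and -6.06 in saline at 24 h and 0.71, 0.78 and 0.81 in LPS at 24 h. It was at least 70.1-fold higher at 4 h and 146-fold at 24 h. In saline it was well above background on 1 of 6 arrays, a 24 h array, so the 4 h response is a lower bound. The fold and the rank at 24 h rest on a saline mean taken mostly from signals below background, and the order of the times cannot be read. The fitted difference of 0.99 turned to -0.22 in the deposited matrix, and the LPS arrays themselves changed by -0.58. Lcn2, the iron-binding lipocalin, went from 16.0-fold to 7.59-fold, a difference of -1.08 (SE 0.20, adjusted p = 0.000827), which was 0.12 and not called with normexp background correction. Serpina3n, a protease inhibitor of reactive astrocytes, had levels of 2.05, 2.07 and 2.04 in saline at 4 h, 2.37, 2.35 and 2.33 in LPS at 4 h, 2.37, 2.40 and 2.37 in saline at 24 h and 3.49, 3.52 and 3.52 in LPS at 24 h. The LPS 24 h arrays stood above all others, and the response grew from 0.30 to 1.13, a difference of 0.83 (SE 0.034, adjusted p = 2.43e-08). Hp, haptoglobin, gave 2.87 at 4 h and 1.49 at 24 h.

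Among 11 markers of neutrophils and blood monocytes, the difference was called lower in 5 (27.1% of all genes) and higher in 3 (41.8%). S100a9, a calcium-binding protein of neutrophils, had levels of -1.27, -1.22 and -1.36 in saline at 4 h, 2.38, 2.42 and 2.44 in LPS at 4 h, -0.66, -0.59 and -0.68 in saline at 24 h and 0.50, 0.52 and 0.40 in LPS at 24 h. LPS exceeded saline at both times without overlap, by 3.70 at 4 h and 1.12 at 24 h, a difference of -2.58 (SE 0.068, adjusted p = 2.3e-09). Its partner S100a8 gave 3.07 at 4 h and 1.35 at 24 h, and Chil3, a chitinase-like protein of myeloid cells, 4.21 at 4 h and 2.46 at 24 h. In the list 5 of 11 members were well above background on all arrays, and Cxcr2, the receptor for Cxcl1, was so on the LPS 24 h arrays alone. The median difference was -1.21, and -0.14 with normexp. The summed log2 level of the list was 4.27 to 4.28 in saline 4 h, 4.67 to 4.70 in LPS 4 h, 3.26 to 3.37 in saline 24 h and 4.41 to 4.51 in LPS 24 h. In this sum, which the brightest members set, LPS lay farther above saline at 24 h than at 4 h. That is the reverse of the median member, so the list as a whole has no single order of the times. In whole tissue more cells of a type and more RNA per cell cannot be told apart, here and in the lists that follow.

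**Figure D3:**
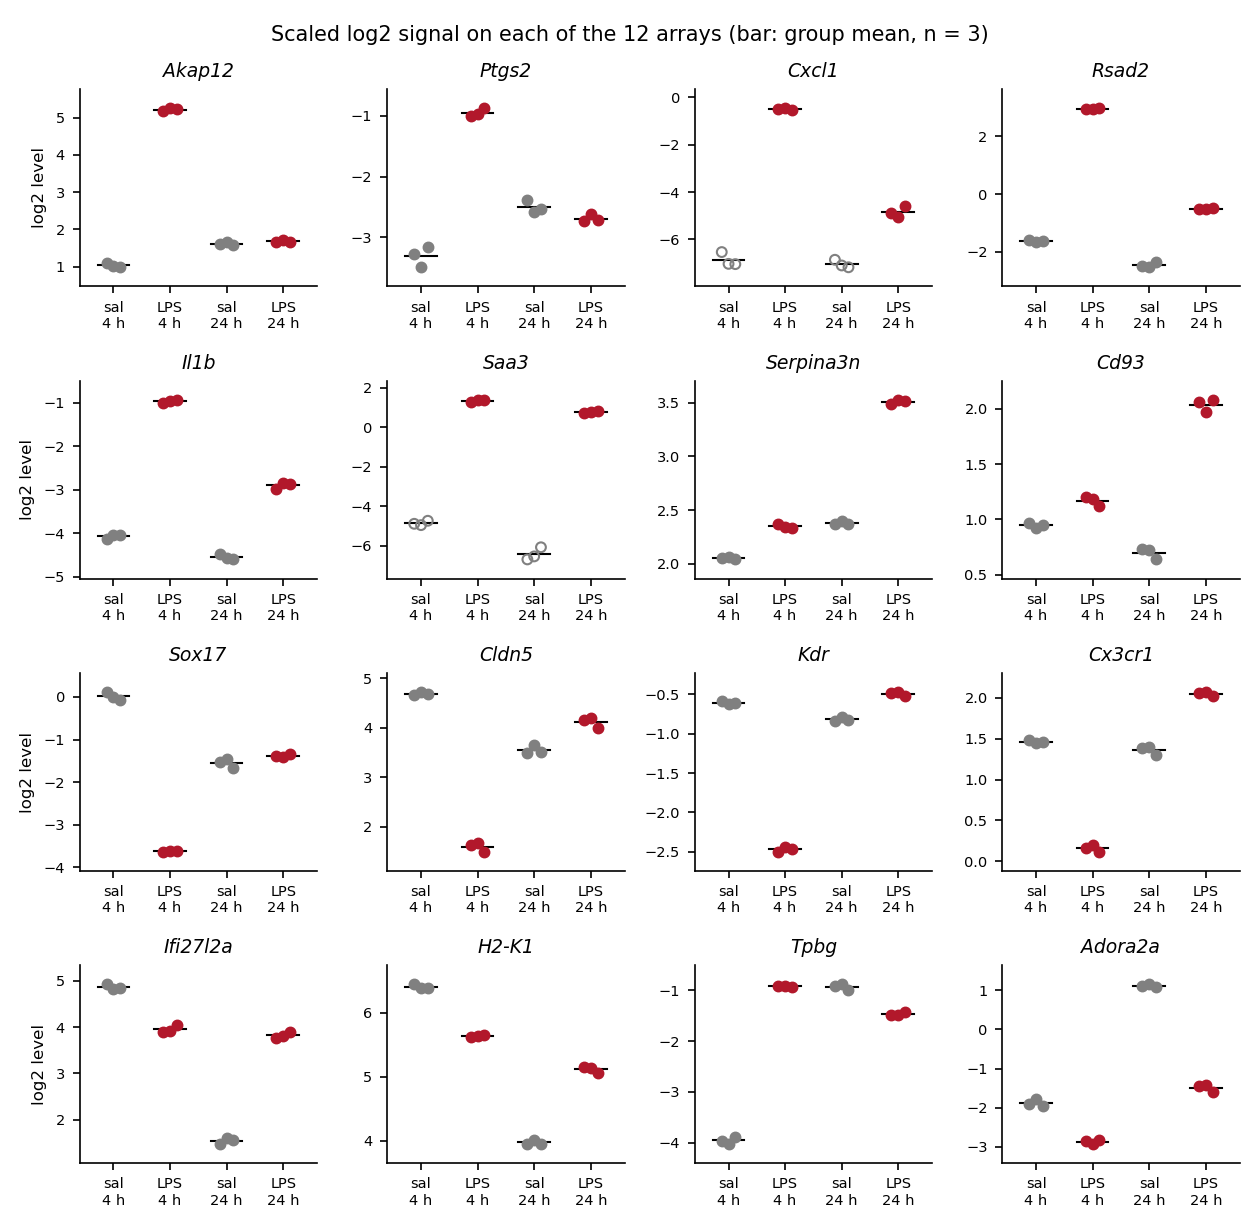
Each panel gives the scaled log2 level (y axis) of a gene on the 3 arrays of each group (x axis), grey for saline and red for LPS, with the group mean as a bar and open points where not all 3 arrays were well above background. The LPS 4 h arrays lie farthest from the other groups in Akap12, Rsad2, Cldn5, Kdr and Cx3cr1, the LPS 24 h arrays in Serpina3n and Cd93, the saline 4 h arrays in Tpbg and the saline 24 h arrays in Ifi27l2a and Adora2a.

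Endothelial genes were mostly below saline at 4 h and above it at 24 h on the scaled arrays. Of 22 measured endothelial and blood-brain barrier markers, 17 were called lower at 4 h (45% of genes tested) and 17 higher at 24 h (21.6%), beside 3 and 1 in the other direction. For the difference 16 were higher (41.8% of genes tested) and 3 lower (27.1%). Without scaling between arrays most members were not called below saline at 4 h: 12 were called higher and 6 lower, with a median of 0.38. The difference was then higher in 7 and lower in 5, with a median of 0.19. Over all 18178 genes without scaling, 13692 were called higher and 441 lower at 4 h, and 905 and 10127 for the difference. Relative to the median of all genes, that of the list was -0.34 at 4 h and 0.78 for the difference in either setting. Other marker lists had medians of the same signs, -0.42 at 4 h and 0.47 at 24 h for choroid plexus and ependyma, -0.75 and 0.32 for lymphocytes, -0.36 and 0.37 for resting microglia and -0.29 and 0.38 for thalamus, beside -0.49 and 0.33 for the endothelial list. The median difference was 0.95, and 17 of the 22 were moved by the LPS arrays, whose median change was 0.65 against -0.11 in saline arrays. Sox17, a transcription factor of arterial endothelium, had levels of 0.11, 0.01 and -0.06 in saline at 4 h, -3.63, -3.63 and -3.63 in LPS at 4 h, -1.53, -1.46 and -1.66 in saline at 24 h and -1.39, -1.41 and -1.34 in LPS at 24 h. At 4 h it was 12.5-fold lower in LPS, the saline arrays then fell too, and at 24 h both groups lay close together with LPS higher by 0.17. Its difference was 3.81 (SE 0.079, adjusted p = 1.14e-09), of which the LPS arrays moved 2.25. Cldn5, the main claudin of the tight junctions of brain vessels, had levels of 4.661, 4.717 and 4.679 in saline at 4 h, 1.633, 1.663 and 1.495 in LPS at 4 h, 3.498, 3.655 and 3.517 in saline at 24 h and 4.161, 4.204 and 4.000 in LPS at 24 h. LPS was 8.51-fold below saline at 4 h and 1.48-fold above it at 24 h, with no overlap at either time, and the difference was 3.65 (SE 0.093, adjusted p = 2.02e-09).

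For Kdr, the main VEGF receptor, levels were -0.58, -0.63 and -0.61 in saline at 4 h, -2.50, -2.44 and -2.46 in LPS at 4 h, -0.83, -0.78 and -0.82 in saline at 24 h and -0.49, -0.47 and -0.52 in LPS at 24 h. Saline moved little between the times, by -0.21, while the LPS arrays rose by 1.97, and the response went from -1.86 to 0.32, a difference of 2.18 (SE 0.039, adjusted p = 7.19e-10). Sox18, the related factor, went from -2.53 to 0.20, and the angiopoietin receptor Tek from -2.52 to 0.55. The transporter Slco1a4 gave -1.53 at 4 h and 0.35 at 24 h and the junction protein Pecam1 -0.95 at 4 h and 0.84 at 24 h. Slc52a3, a riboflavin transporter, gave -2.54 at 4 h and 1.05 at 24 h with a difference of 3.60 (SE 0.070, adjusted p = 8.2e-10), and Degs2, a sphingolipid desaturase, -2.88 at 4 h and 0.44 at 24 h. Cdh5, the adherens junction cadherin, and Sox7 were larger at 4 h, with differences of -0.63 and -1.26, and Ocln and Tjp1 were not called, at -0.03 and -0.08. Vwf, the endothelial clotting factor carrier, gave -0.50 at 4 h and 0.76 at 24 h. Selp, which captures leukocytes on activated endothelium, was higher in LPS at both times, at least 6.54-fold at 4 h and 2.16-fold at 24 h.

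Markers of resting microglia were mostly above saline at 24 h. Among 15 of them 8 were lower and 4 higher at 4 h, near the shares of all genes (45% and 29%). At 24 h 12 were higher and 2 lower (21.6% and 25.9% of all genes). The difference was called higher in 12 (41.8% of all genes) and lower in 3 (27.1%), with a median of 0.43 that turned to -0.33 without scaling. Cx3cr1, the receptor for neuronal fractalkine, had levels of 1.49, 1.45 and 1.46 in saline at 4 h, 0.16, 0.20 and 0.12 in LPS at 4 h, 1.39, 1.40 and 1.30 in saline at 24 h and 2.07, 2.07 and 2.03 in LPS at 24 h. Saline changed by -0.10 between the times (adjusted p = 0.0227), the LPS 4 h arrays lay below both saline groups and the LPS 24 h arrays above, giving -1.30 at 4 h and 0.69 at 24 h and a difference of 1.99 (SE 0.049, adjusted p = 1.98e-09). P2ry12, the purinergic receptor of microglial processes, went the other way, from 0.12 to -0.68, a difference of -0.81 (SE 0.15, adjusted p = 0.000702). Tmem119, a membrane protein specific to microglia, gave -0.61 at 4 h and 0.67 at 24 h with changes of 0.16 in LPS arrays and -1.12 in saline arrays, and Aif1, which encodes the microglial protein IBA1, -0.84 at 4 h and 0.79 at 24 h with -0.62 in LPS arrays and -2.25 in saline arrays.

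Some genes responded only or more at 24 h through a rise of the LPS arrays. They were the smaller part of their courses. Among genes well above background on all 12 arrays, the LPS arrays moved more in 6 of 42 late only higher genes. They did so in 11 of 88 such genes that were higher and larger at 24 h. Without that limit the counts were 61 of 131, which supports nothing on its own as said above, and 13 of 98. Cd93, a receptor of endothelial and myeloid cells, had levels of 0.97, 0.92 and 0.95 in saline at 4 h, 1.20, 1.19 and 1.12 in LPS at 4 h, 0.73, 0.72 and 0.64 in saline at 24 h and 2.06, 1.97 and 2.08 in LPS at 24 h, with the LPS 24 h arrays above the rest. Its response went from 0.22 to 1.34, a difference of 1.12 (SE 0.056, adjusted p = 8.64e-08). Serping1, the inhibitor of complement C1, had levels of 0.15, 0.11 and 0.17 in saline at 4 h, 0.16, 0.14 and 0.14 in LPS at 4 h, -0.04, -0.06 and -0.09 in saline at 24 h and 1.11, 1.07 and 1.02 in LPS at 24 h with a response of 0.00 at 4 h, not called, against 1.13 at 24 h. Apod, a lipid-binding apolipoprotein, gave 0.68 at 4 h and 1.46 at 24 h, Fermt3, an integrin activator of blood cells, 0.29 at 4 h and 1.19 at 24 h, and Pik3ap1, a signalling adaptor of B cells and macrophages, 0.11 at 4 h and 1.11 at 24 h. The immune receptors Pilra and Cd22 were late only at 1.35 and 1.10. Without scaling between arrays, the differences of Cd93, Serping1, Apod, Fermt3, Pik3ap1, Pilra, Cd22 and Serpina3n stayed above 0 but were not called.

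Interferon-induced genes divided by course, and most of the later ones were moved by the saline arrays. Of 29 measured genes of the type I interferon response, 22 were called higher at 4 h (29% of all genes) and 29 at 24 h (21.6%). For the difference 22 were higher (41.8%) and 5 lower (27.1%), with a median of 0.98. Without scaling the difference was higher in 7 and lower in 8, with a median of 0.23. Over all 18178 genes it was then higher in 905 and lower in 10127, with a median of -0.59. The median fell over time by 1.68 in saline and by 0.68 in LPS arrays, and in 23 genes the saline arrays moved more. Rsad2, an antiviral enzyme also called viperin, ran against the list, with levels of -1.60, -1.67 and -1.63 in saline at 4 h, 2.95, 2.96 and 2.99 in LPS at 4 h, -2.50, -2.54 and -2.35 in saline at 24 h and -0.53, -0.52 and -0.49 in LPS at 24 h. It was 24.2-fold higher at 4 h and 3.86-fold at 24 h, a difference of -2.65 (SE 0.065, adjusted p = 2.01e-09), and the LPS arrays moved more. Cmpk2, which lies beside Rsad2 in the genome, gave 1.51 at 4 h and 0.18 at 24 h, and Ifit2 2.02 at 4 h and 0.95 at 24 h.

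Oas1a, an RNA sensor that makes oligoadenylates, had the reverse course, from 0.35 to 2.11, a difference of 1.77 (SE 0.056, adjusted p = 5.28e-09), with changes over time of 0.00 in LPS arrays and -1.77 in saline arrays. Its promoter is shown beside that of Rsad2, since both hold matches to the interferon-stimulated response element (ISRE, searched as AAANNGAAA on either strand, in capitals) while their courses differed. Both run from 250 bases before to 50 after the RefSeq start in GRCm38.p6, 5′ to 3′. Rsad2 lies at chr12:26456403-26456702, minus strand, and Oas1a at chr5:120907476-120907775, minus strand.
Rsad2: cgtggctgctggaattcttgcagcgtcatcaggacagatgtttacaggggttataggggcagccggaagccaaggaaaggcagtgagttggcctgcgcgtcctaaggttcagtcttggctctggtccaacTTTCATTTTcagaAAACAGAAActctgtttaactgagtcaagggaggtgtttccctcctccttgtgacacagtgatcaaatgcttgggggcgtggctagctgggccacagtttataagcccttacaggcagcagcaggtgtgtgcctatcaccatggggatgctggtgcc
Oas1a: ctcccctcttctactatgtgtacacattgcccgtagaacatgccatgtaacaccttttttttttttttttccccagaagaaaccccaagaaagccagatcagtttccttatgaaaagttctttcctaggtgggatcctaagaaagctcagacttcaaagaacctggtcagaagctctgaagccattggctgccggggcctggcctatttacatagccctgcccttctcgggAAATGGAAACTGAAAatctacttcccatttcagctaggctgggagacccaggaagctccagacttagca

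Ifi27l2a, a small interferon-induced membrane protein, had levels of 4.92, 4.83 and 4.84 in saline at 4 h, 3.89, 3.92 and 4.05 in LPS at 4 h, 1.48, 1.59 and 1.56 in saline at 24 h and 3.77, 3.80 and 3.90 in LPS at 24 h. Saline fell by 3.32 while the LPS arrays changed by -0.13, and LPS minus saline was -0.91 at 4 h and 2.28 at 24 h. Bst2, the antiviral tether tetherin, gave -0.71 at 4 h and 1.41 at 24 h, again with the larger move in saline, -2.49. Oasl2 was late only at 1.80, with changes of -0.67 in LPS arrays and -2.47 in saline arrays.

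Antigen presentation and complement genes also moved mainly on the saline arrays. In the antigen presentation list the difference of 15 of 18 measured members was called higher (41.8% of all genes) and of 2 lower (27.1%), with a median of 0.75. In complement 13 of 16 measured members were called higher and 0 lower, with a median of 1.11. Median changes over time were -0.18 in LPS and -1.35 in saline arrays for the first and -0.01 and -1.24 for the second. Without scaling the median of antigen presentation was at 0 (-0.00498) and that of complement 0.35. H2-K1, a class I heavy chain, had levels of 6.44, 6.39 and 6.38 in saline at 4 h, 5.62, 5.64 and 5.65 in LPS at 4 h, 3.96, 4.02 and 3.96 in saline at 24 h and 5.16, 5.14 and 5.06 in LPS at 24 h. LPS was below saline at 4 h and above it at 24 h, with responses of -0.77 and 1.14, and both groups fell between the times, saline more. Near-identical class I genes share sequence, so the H2 probes may read more than 1 of them. C3, the central complement component, gave -0.41 at 4 h and 1.26 at 24 h with changes of -0.33 in LPS arrays and -2.00 in saline arrays, and Cfb, factor B, 1.47 at 4 h and 3.29 at 24 h. Lrg1, a glycoprotein of vessels and the acute phase, gave 0.67 at 4 h and 2.27 at 24 h.

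Neuronal genes were more often larger at 4 h or lower at 24 h. For 20 glutamate receptors and transporters the difference was called higher in 0 and lower in 16 (median -0.48), and for 26 voltage-gated channels in 3 and 16 (median -0.70). Over all genes it was called higher in 41.8% and lower in 27.1%. Channels rose over time in both sets of arrays, by medians of 0.76 in LPS and 1.12 in saline. Hcn2, a pacemaker channel that limits excitability, was moved by the LPS arrays, with levels of -0.56, -0.58 and -0.59 in saline at 4 h, 0.52, 0.57 and 0.58 in LPS at 4 h, -0.35, -0.30 and -0.32 in saline at 24 h and -0.60, -0.62 and -0.57 in LPS at 24 h. It was above saline at 4 h and below it at 24 h without overlap, with responses of 1.13 and -0.28, a difference of -1.41 (SE 0.039, adjusted p = 2.87e-09). The metabotropic receptor Grm5 gave 1.30 at 4 h and -0.28 at 24 h, with changes of 0.86 in LPS arrays and 2.44 in saline arrays. By the count of members, markers of excitatory neurons moved with these genes: the difference was called higher in 2 and lower in 11 of 13, and 12 of them were well above background on all 12 arrays. Their summed log2 level was 8.74 to 8.76, 8.25 to 8.27, 8.18 to 8.24 and 7.89 to 7.91 in the order saline and LPS at 4 h, then at 24 h. The sum fell from 4 h to 24 h in saline although the median member rose. In the sum LPS lay below saline at both times, and farther below at 4 h than at 24 h, although the median response of the members at 4 h was 0.47. Counts and sum thus went opposite ways. The part of neuron content in the channel and receptor values was not tested.

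Markers of striatum, a tissue outside the hippocampus, were below saline in LPS at 24 h. All 7 were called lower then (25.9% of all genes). At 4 h 4 were lower (45%) and 1 higher (29%), and medians were -1.70 at 24 h and -0.54 at 4 h. In the list 6 had a difference called lower (27.1% of all genes) and 1 called higher (41.8%), and the saline arrays moved more in all 7. Adora2a, an adenosine receptor of striatal neurons, had levels of -1.90, -1.78 and -1.95 in saline at 4 h, -2.85, -2.92 and -2.84 in LPS at 4 h, 1.12, 1.15 and 1.09 in saline at 24 h and -1.45, -1.41 and -1.61 in LPS at 24 h. The saline 24 h arrays were the high ones, and the response went from -0.99 to -2.61, a difference of -1.62 (SE 0.082, adjusted p = 8.85e-08). The dopamine receptor Drd2 gave -0.31 at 4 h and -2.04 at 24 h. Of 9 thalamic markers 6 had a difference called higher (41.8% of all genes) and 2 called lower (27.1%), with a median change of -1.58 in saline. Their median difference of 0.58 turned to -0.18 without scaling. Summed log2 levels of the striatal list were 6.962 to 7.003 in saline 4 h, 5.56 to 5.61 in LPS 4 h, 5.92 to 5.98 in saline 24 h and 5.32 to 5.49 in LPS 24 h. The summed level, which the brightest members set, fell from 4 h to 24 h in saline although the median member rose by 2.06, and LPS lay farther below saline in it at 4 h than at 24 h. The part of the dissection in these values was not tested.

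Several of the largest rises at 4 h went with low saline 4 h arrays. Tpbg, a membrane glycoprotein that dampens Wnt signalling, had levels of -3.96, -4.02 and -3.88 in saline at 4 h, -0.91, -0.92 and -0.93 in LPS at 4 h, -0.91, -0.88 and -0.99 in saline at 24 h and -1.48, -1.49 and -1.42 in LPS at 24 h. The saline 4 h arrays were the low ones, LPS changed by -0.54 and saline by 3.02, and the response of 8.19-fold at 4 h became -0.53 at 24 h. Cdh2, the neural cadherin, gave 3.02 at 4 h and -0.23 at 24 h with changes of -0.59 in LPS arrays and 2.66 in saline arrays, and Lmnb1, a nuclear lamin, 3.101 and -0.13 with -1.46 in LPS arrays and 1.77 in saline arrays. Cpeb4, which binds the polyadenylation elements of messenger RNAs, and the RNA-binding protein Msi2 gave 2.78 and 2.93 at 4 h with saline changes of 3.08 and 3.40. Bdnf, the neurotrophin induced by activity, had the reverse course, -1.32 at 4 h and 0.68 at 24 h, also with the larger change in saline, -1.68.

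**Figure D4:**
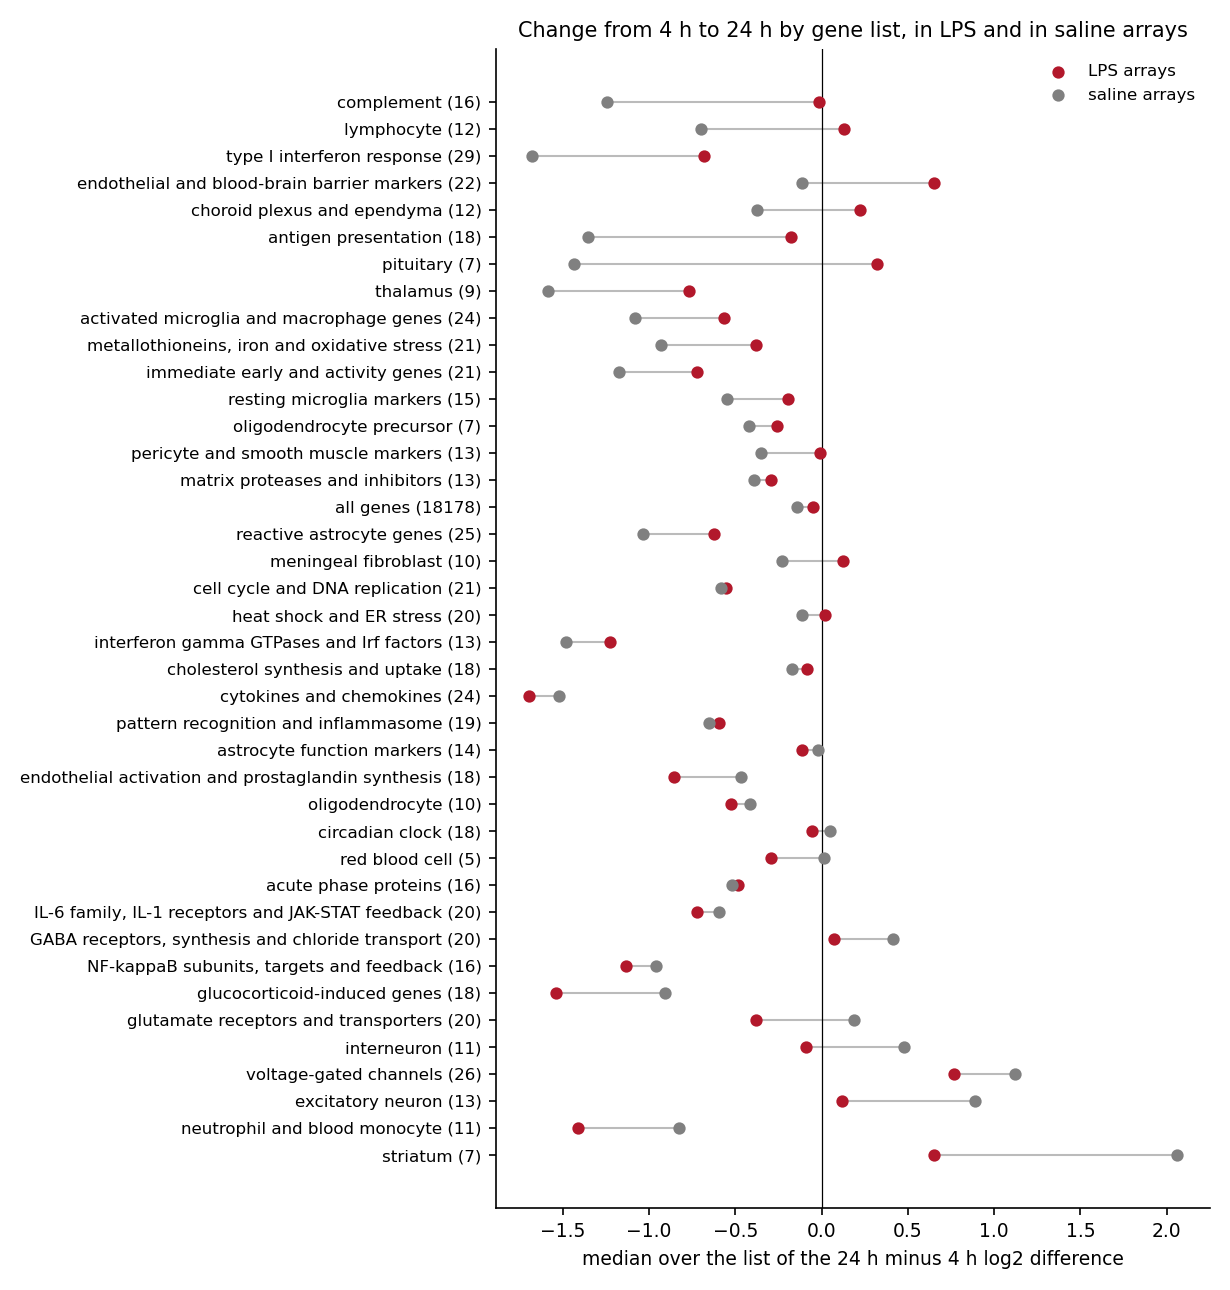
For each gene list (y axis, measured members in brackets) the point gives the median log2 change from 4 h to 24 h (x axis), red over LPS arrays and grey over saline arrays, with lists ordered by the median difference of the responses. Grey points lie far left for interferon, antigen presentation and complement genes, while for endothelial markers the grey point lies near 0, at -0.11, and the red point at 0.65.

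Promoter sequence was set beside the courses for 12471 genes with 15825 RefSeq promoters of 300 bases. An NF-kappaB match was present in 5.32% of all of them, in 12.2% of those of genes higher at both times and larger at 4 h (27 of 221), in 4.90% for early only higher genes and in 6.49% for genes larger at 24 h. ISRE matches were in 8.13% of all promoters, in 17.2% for genes larger at 4 h, in 35.1% (27 of 77) for genes larger at 24 h and in 33.9% (20 of 59) where the sizes were not distinguished. Late only higher genes held ISRE in 17% (17 of 100) and early only higher genes in 5.67%. Among early only higher genes moved by the LPS arrays the ISRE share was 8.89% and the NF-kappaB share 2.22% (1 of 45 promoters). Matches of the STAT element GAS, searched as TTCNNNGAA, were in 6.91% of all promoters and in 12.99% for genes larger at 24 h. GAS was in 6.96% for early only higher genes, and in 13.3% for those of them moved by the LPS arrays. Both strands were read, a stretch could match more than 1 motif, and a match is a description of letters in the window.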

How the data were processed

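Total hippocampal RNA was hybridised to 12 one-colour Agilent arrays. The deposited intensity values were made with Agilent Feature Extraction 10.7.3.1, per the file headers (the submitters' processing notes name 9.1), with background subtracted within each array and nothing done between arrays. A deposited matrix of log2 values by the authors, of which the normalization is not given in the sources used here, served as an alternative. Here log2 processed signals were reduced by the log2 of each array's 75th percentile, replicate spots were averaged, and the brightest probe by mean signal stood for a gene. Probes were named through RefSeq accessions where possible. Contrasts were fitted with limma 3.58.1 (R 4.3.3) on all 12 arrays, 4 group means, with Benjamini-Hochberg adjustment over 18178 genes, which all printed adjusted p-values come from. The fit was tested on simulated data. A response against a group with no array above background is given as "at least", from the lowest signal well above background on those arrays. Promoters are from RefSeq (GRCm38.p6).

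Members and lists were chosen with earlier results of these data known. Named genes were the 5 largest responses of each course and direction, the 8 largest differences of each sign among genes above background on all 12 arrays, up to 3 members of each list by smallest adjusted p, and 20 genes set by name. Of those the rule named, some are not reported here. In all, 27 response lists and 12 marker lists were read, with no test of their own. Alternatives changed the scaling, background correction, filter, probe rule, fold thresholds, blocks and single arrays left out.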

Additional observations from a re-analysis of the deposited data

Results flagged for a closer look

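The response differed between 4 h and 24 h by the test of the difference itself in 7594 genes above 0 and 4918 below 0, in limma with Benjamini-Hochberg adjustment. Responses were called in opposite directions in 349 genes that were higher at 4 h and in 383 that were lower at 4 h.

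Among named genes whose LPS arrays moved more and whose groups did not overlap at either time, the difference of the responses (log2) marked Cldn5 (3.65), Cx3cr1 (1.99), Degs2 (3.32), Hspa12b (3.29), Kdr (2.18), Npas4 (2.00), Slc52a3 (3.60), Sox17 (3.81) and Sox18 (2.73) as lower in LPS at 4 h and higher at 24 h. It marked Ccdc71l (-1.97), Depp1 (-3.31), Hcn2 (-1.41), Irf2bp2 (-2.53), Lct (-2.26) and Tsc22d3 (-1.59) as higher in LPS at 4 h and lower at 24 h. For Csf3 the fitted value was -6.30, but it was below background in both groups at 24 h and in saline at 4 h, so neither a direction at 24 h nor a size of the difference can be read from it.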

How the results depend on the processing

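Of the 135 named genes with a value in all of the 24 alternatives other than LPS arrays only, 95 kept the direction and the call of their difference in each. The other 19 have no value over genes well above background on all arrays, and 9 of these kept both elsewhere. Leaving out each array in turn gave 7292 to 7607 differences above 0, 4733 to 4933 below 0, 960 to 1065 early only, 123 to 152 late only, 322 to 380 larger at 4 h, 102 to 120 larger at 24 h, 86 to 100 not distinguished and 662 to 754 opposite genes. In the other settings the cause of a changed value was not tested, unless its construction shows it. Without scaling between arrays there were 905 differences above 0, 10127 differences below 0, 4542 early only, 643 larger at 4 h, 350 not distinguished and 257 opposite. With normexp background correction there were 4829 differences above 0, 2931 differences below 0, 416 early only, 30 late only, 121 larger at 4 h, 60 larger at 24 h, 33 not distinguished and 228 opposite. Asking also for a 2-fold size there were 1596 differences above 0 and 1463 differences below 0. Over genes moved more by the LPS arrays there were 1751 differences above 0, 1644 differences below 0, 173 early only, 63 late only, 175 larger at 4 h, 17 larger at 24 h, 41 not distinguished and 102 opposite. In a separate fit of LPS arrays only there were 7507 differences below 0. In the deposited matrix there were 296 early only, 26 late only, 171 larger at 4 h, 65 larger at 24 h, 14 not distinguished and 287 opposite. With saline 4 h as controls of both times there were 185 early only, 663 late only, 584 larger at 4 h, 3204 larger at 24 h, 623 not distinguished and 260 opposite. Over genes well above background on all arrays there were 497 early only, 41 late only and 33 not distinguished. With responders from 1.5-fold there were 2607 early only, 314 late only, 1127 larger at 4 h, 211 larger at 24 h, 251 not distinguished and 1919 opposite. With responders from 3-fold there were 308 early only, 45 late only, 159 larger at 4 h, 48 larger at 24 h, 31 not distinguished and 186 opposite. Without the filter on dim probes there were 315 late only. With saline 24 h as controls of both times there were 85 late only, 1046 larger at 4 h and 175 opposite. Counting small called changes as no response there were 238 larger at 4 h and 428 opposite.

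On LPS arrays only, where the saline change is left out, these turned: Adora2a to 1.38, Aif1 to -0.62, Aqp4 to -0.097, Aspg to -1.12, Bst2 to -0.37, C3 to -0.33, Ccl5 to -1.60, Ccne1 to -0.14, Cd52 to -0.60, Cdc20 to -0.79, Cxcl16 to -0.34, Dbp to -0.27, Dedd to 0.22, Drd2 to 1.24, Fos to -1.59, Gfap to -0.30, Gpr149 to 0.34, Gpx1 to -0.25, Grm5 to 0.86, H2-K1 to -0.52, Ifi27 to -0.18, Ifi27l2a to -0.13, Insig1 to 0.29, Kcnj8 to -0.61, Mcm3 to -0.54, Msi2 to 0.58, Oasl2 to -0.67, Phf11a to -0.037, Prl to -1.77, Rcor3 to 0.65, Relb to -0.50, Rgs9 to 0.075, S100b to -0.65, Saa3 to -0.58, Socs1 to -1.21, Sox9 to 0.23, Spp1 to -1.04, Tagln to -0.78, Timp1 to -0.34, Tlr2 to -1.23 and Wfdc18 to -0.54. The sign turned without scaling: Aqp4 to -0.23, Dbp to -0.10, Gclc to -0.0104, Kcnj8 to -0.29, Pdia6 to -0.14, Relb to -0.29 and Tlr2 to -0.11. The sign turned with normexp: Lcn2 to 0.12. The sign turned with the mean of a gene's probes: Lss to 0.17 and Pdia6 to -0.22. The sign turned with probes well above background on all arrays, which changes the probe: Maml2 to 0.64. The sign turned in the deposited matrix: Saa3 to -0.22.

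With the replicate number as a replicate block there were 7492 differences above 0 and 4827 below 0, and with the slide as a block 7642 and 4926. Numbers did not pair the samples: deviations of same-numbered arrays correlated between -0.16 and 0.19 over 18 pairs. The share of called differences above 0 was 60.7%, and 54.9% with quantile scaling, 66.3% with median scaling, 54.2% in the deposited matrix and 8.20% without scaling. With 3 arrays in a group precision is limited, dim probes give bounds rather than folds, and time cannot be told apart from scan day.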

Other observations

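Activity genes, the transcripts that neurons make within minutes of firing, did not take 1 course. In the list of immediate early genes 12 of 21 differences were called above 0 and 8 below (41.8% and 27.1% of all genes), with a median of 0.54 that turned to -0.22 without scaling. Npas4, a transcription factor specific to neurons, gave -0.41 at 4 h and 1.59 at 24 h, and its LPS arrays rose by 1.06 between the times while saline changed by -0.94. Fos gave -0.31 at 4 h and 0.72 at 24 h with changes of -1.59 in LPS arrays and -2.62 in saline arrays, and Egr4 -1.50 at 4 h and 0.21 at 24 h with -1.20 in LPS arrays and -2.91 in saline arrays. Fosb and Dusp6, a phosphatase that ends ERK signalling, were larger at 4 h, at 1.57 and 1.47 against 0.62 and 0.11 at 24 h. Of GABA genes, 6 of 20 differences were called above 0 and 10 below (41.8% and 27.1% of all genes). Without scaling these were 2 and 14, against 905 and 10127 of all 18178 genes. The delta subunit Gabrd, part of receptors outside synapses, gave -1.25 at 4 h and 0.29 at 24 h, with the larger change in saline (-1.39). The chloride importer Slc12a2 was early only at 1.31, and the exporter Slc12a5 gave -0.81 at 4 h and -0.33 at 24 h.

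Genes of other cells were also measured. In the activated microglia and macrophage list 15 of 24 differences were called above 0 (41.8% of all genes) and 5 below (27.1%). Their median of 0.58 turned to -0.18 without scaling, and the saline arrays moved more in 20 genes. The IgG receptors Fcgr4 and Fcgr1 gave 2.35 and 1.43 at 24 h against 0.23 and -0.35 at 4 h, and the costimulatory receptor Cd40 was larger at 4 h, at 3.04 against 1.29. Of lymphocyte markers 8 of 12 differences were called above 0 and 0 below, with 7 of 12 well above background on all arrays, and of choroid plexus and ependymal markers 10 of 12 differences were called above 0 (41.8% of all genes) and 0 below. Without scaling these were 4 and 0 for lymphocyte markers and 2 and 2, with a median of 0.16, for choroid plexus and ependyma. Over all 18178 genes they were then 905 and 10127. Otx2, a transcription factor of choroid plexus, gave -0.33 at 4 h and 0.88 at 24 h, and its LPS arrays rose by 1.87. In the reactive astrocyte list 13 of 25 differences were called above 0 and 10 below (41.8% and 27.1% of all genes). Without scaling these were 6 and 14, against 905 and 10127 of all 18178 genes. Gfap, the astrocyte filament, gave -1.01 at 4 h and 0.41 at 24 h, but of its 3 probes 2 were called above 0 for the difference and 1 below. Such disagreement between probes was found in 872 of 6776 genes that had more than 1 probe.

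Among clock genes 7 of 18 differences were called above 0 and 9 below, and among cholesterol genes 6 of 18 differences were called above 0 and 5 below, beside 41.8% and 27.1% of all genes. Without scaling no difference was called above 0 in either list, and 11 of the clock genes and 15 of the cholesterol genes were called below. Over all 18178 genes 905 were then called above 0 and 10127 below. Hmgcs1, an early enzyme of cholesterol synthesis, gave 1.32 at 4 h and -0.31 at 24 h, and Insig1, a brake on that synthesis, 1.26 at 4 h and -0.06 at 24 h, with changes in saline of 0.96 and 1.61. The pituitary hormone transcripts Prl and Gh were called lower in LPS at both times. Prl gave -3.84 at 4 h and -2.51 at 24 h, with changes of -1.77 in LPS arrays and -3.10 in saline arrays. Its difference was 0.56 and not called without scaling (adjusted p = 0.125 in limma). Gh gave -2.94 at 4 h and -1.47 at 24 h with a saline change of -1.71, and was not well above background on all 12 arrays.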
